A study of Mus musculus with 36 samples.

Results

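The 10 genes described here are the 5 NF-kB subunits Nfkb1, Nfkb2, Rel, Rela and Relb, and 5 genes that restrain or redirect NF-kB, namely Nfkbia, Nfkbie, Nfkbiz, Tnfaip3 and Bcl3. They were taken by name from 30284 genes quantified in 36 RNA-seq libraries of primary mouse bone cells, and all 10 passed the filter on low counts in every comparison. NF-kB subunits pair into transcription factors that wait in the cytoplasm, bound to inhibitor proteins of the IkB family. Cytokines such as tumour necrosis factor and RANK-L (the osteoclast-forming ligand of the receptor RANK) activate kinases that destroy the inhibitor or process a precursor subunit, and the freed dimers enter the nucleus. Several inhibitor genes are themselves NF-kB targets, so their transcripts are widely read as feedback. In the osteoclast lineage NF-kB acts between RANK and the transcription factors that turn a macrophage into a bone-resorbing cell.

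The mice were 20 weeks old and were either wild-type controls (WT) or lacked the microRNA gene Mir324 (null). Marrow cells were expanded for 3 days in the macrophage growth factor M-CSF at 100 ng/mL, and then kept for 5 days either in M-CSF alone at 30 ng/mL (bone marrow macrophages, BMM) or in M-CSF at 30 ng/mL with RANK-L at 50 ng/mL (labelled osteoclasts, OC). Osteoblasts (OB, the cells that form bone) grew out of collagenase-treated bone chips over about 6 weeks and then spent 18 days in medium with 2 mM β-glycerophosphate and 50 µg/mL ascorbic acid. Each of the 6 groups of genotype and culture had 6 libraries. The labels give neither the way the null allele was made nor whether the libraries of a group came from separate mice, so p-values measure the spread between these libraries, which may be technical. Mir324 itself was not analysed here, and the genotype labels were not checked against it.

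Libraries held 13987048 to 26105127 estimated counts assigned to genes. In WT the labels matched their markers: 10 of 10 osteoclast, 8 of 8 macrophage and 8 of 8 osteoblast markers were highest in the WT group so labelled. The null OC libraries stood apart from their label. Their 10 osteoclast markers summed to 334 to 671 TPM (a scale corrected for transcript length and library size), against 31379 to 35883 in WT OC and 183 to 215 in WT BMM, and the osteoclast receptor Calcr was at 0 in all of them. The osteoclast protease Ctsk was at 221 CPM in null OC replicate 6 and at 36.9 to 62.7 in the other 5 null OC libraries. CPM here is a gene's count relative to its library's total, after scaling between libraries. The OB cultures of both genotypes also carried macrophage markers (2183 to 3304 TPM in sum) and osteoclast markers (4147 to 8162 TPM). These are bulk libraries, in which fewer cells of a type and less RNA per cell cannot be told apart.

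The microRNA hairpin that the null mice lack, per the labels, gives a pair of mature strands, which are shown here. They are printed 5′ to 3′ from RefSeq (GRCm38.p6, chr11:70012060-70012082 and chr11:70012095-70012114, plus strand), with the seed (bases 2 to 8) in capitals.
mmu-miR-324-5p: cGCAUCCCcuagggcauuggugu
mmu-miR-324-3p: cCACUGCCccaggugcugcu

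The 7-base match to the seed of the 5p strand, GGGATGC, lay in the longest 3′ UTR of 8.71% of 13685 genes, and the match to the 3p seed, GGCAGTG, in 15.7% (GENCODE M21). Among the 10 genes, Rel had 2 matches to the 5p seed, at bases 1844 and 4893 of an annotated 3′ UTR of 5418 bases. They are printed with their surroundings and the match in capitals.
Rel, first match: cctgctgtGGGATGCtcttggta
Rel, second match: aggcaggaGGGATGCttgaggga

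The deposited tables list this Rel transcript at 2799 bases, shorter than its annotation. For the 3p strand, Relb and Tnfaip3 had 1 match each.
Relb: ctgaagaaGGCAGTGgattgttc
Tnfaip3: tggttaccGGCAGTGcatgatgt

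The other 7 genes had no match to either seed in that UTR. A match is a run of letters, and its use by the microRNA was not tested. Rel fell in null BMM and null OC, Relb rose in both, and Tnfaip3 rose in null BMM.

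Promoter sequences are shown because several of these genes are textbook NF-kB targets. RefSeq promoter windows (GRCm38.p6), from 250 bases before to 50 after a transcript start, were listed for 7 of the 10 genes. The NF-kB consensus of 10 bases was searched on both strands, where a palindromic match counts on each strand and neighbouring matches may overlap. It was found in 8.46% of 32851 windows, and in at least 1 window of Nfkb2, Rel, Nfkbia, Nfkbie, Tnfaip3 and Bcl3. Nfkb2 had 3 windows, each with a match, and Tnfaip3 had 2, so a count per gene is not comparable with that share per window. Windows 2 and 3 of Nfkb2 (chr19:46305445-46305744 and chr19:46305680-46305979) overlap. The only match in window 3, GGGACTTTCC, is also a match in window 2. Only the first window listed for each gene is located and printed here. The 10-base matches included GGGAATTCCC and GGGGCTTTCC in Nfkb2, GGGAAATCCC in Rel, GGGGGATTCC in Nfkbie and GGGAAGTCCC in Bcl3. The windows lie at chr19:46304487-46304786 (Nfkb2, plus strand), chr11:23770920-23771219 (Rel, minus strand), chr12:55492598-55492897 (Nfkbia, minus strand), chr17:45555450-45555749 (Nfkbie, plus strand), chr10:19015361-19015660 (Tnfaip3, minus strand) and chr7:19822706-19823005 (Bcl3, minus strand). Each is printed along the gene's own strand, with the bases covered by matches in capitals.
Nfkb2: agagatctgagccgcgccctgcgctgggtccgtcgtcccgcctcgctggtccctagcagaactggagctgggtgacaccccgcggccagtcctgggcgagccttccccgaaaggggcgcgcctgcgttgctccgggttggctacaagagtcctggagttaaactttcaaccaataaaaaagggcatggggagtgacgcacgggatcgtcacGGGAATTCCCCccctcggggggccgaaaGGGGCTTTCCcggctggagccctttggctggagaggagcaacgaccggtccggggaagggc
Rel: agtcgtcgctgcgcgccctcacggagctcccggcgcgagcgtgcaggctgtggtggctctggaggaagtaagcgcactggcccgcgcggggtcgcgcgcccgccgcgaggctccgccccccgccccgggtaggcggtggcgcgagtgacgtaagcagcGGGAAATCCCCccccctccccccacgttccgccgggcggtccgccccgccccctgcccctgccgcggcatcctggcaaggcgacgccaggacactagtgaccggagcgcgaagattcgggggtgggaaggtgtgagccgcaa
Nfkbia: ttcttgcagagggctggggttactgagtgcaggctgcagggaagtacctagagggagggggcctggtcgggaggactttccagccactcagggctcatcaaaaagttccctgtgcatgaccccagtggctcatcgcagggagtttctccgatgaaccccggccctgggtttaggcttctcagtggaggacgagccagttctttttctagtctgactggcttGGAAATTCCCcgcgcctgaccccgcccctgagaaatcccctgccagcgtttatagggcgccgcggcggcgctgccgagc
Nfkbie: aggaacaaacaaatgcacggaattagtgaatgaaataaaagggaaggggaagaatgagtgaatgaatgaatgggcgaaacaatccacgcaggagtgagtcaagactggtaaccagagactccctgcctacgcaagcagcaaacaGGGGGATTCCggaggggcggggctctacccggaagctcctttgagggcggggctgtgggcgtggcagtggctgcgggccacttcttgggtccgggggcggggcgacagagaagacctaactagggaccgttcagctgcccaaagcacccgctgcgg
Tnfaip3: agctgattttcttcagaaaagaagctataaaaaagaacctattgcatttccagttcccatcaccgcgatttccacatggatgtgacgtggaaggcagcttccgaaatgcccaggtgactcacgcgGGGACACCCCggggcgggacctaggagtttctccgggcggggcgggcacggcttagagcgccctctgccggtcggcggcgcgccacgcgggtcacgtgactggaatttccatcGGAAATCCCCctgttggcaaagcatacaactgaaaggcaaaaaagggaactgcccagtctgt
Bcl3: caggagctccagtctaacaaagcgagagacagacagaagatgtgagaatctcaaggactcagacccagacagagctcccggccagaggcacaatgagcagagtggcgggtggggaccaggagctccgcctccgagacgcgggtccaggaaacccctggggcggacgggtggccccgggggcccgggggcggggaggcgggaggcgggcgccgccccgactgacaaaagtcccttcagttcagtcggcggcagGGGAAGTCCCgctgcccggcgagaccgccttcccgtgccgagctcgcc

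The single match in Nfkbia began 29 bases before the transcript start and the one in Nfkbie 106 bases before it. The letters were not found in the Rela window or in the other Tnfaip3 window, which says nothing about the factor.

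Per transcript length, Nfkbia, which encodes the inhibitor IkB-alpha, was the most abundant of the 10 genes in every group, at a mean level of 98.4 TPM in WT BMM and 679 in WT OC. Rela, the transactivating subunit p65, came next in WT BMM (48.4 TPM), WT OB (34.7) and null OB (38.2). Nfkb2, the precursor of the subunit p52, came next in null BMM (69.6), WT OC (91.1) and null OC (74.8). Rel, which encodes the lymphoid and myeloid subunit c-Rel, was the least abundant of the 10 in null BMM (5.36 TPM), null OC (4.69), WT OB (3.22) and null OB (3.94). Bcl3, a nuclear IkB protein that joins p50 and p52 dimers, was the least abundant in WT BMM, at 1.58 TPM.

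**Figure D1:**
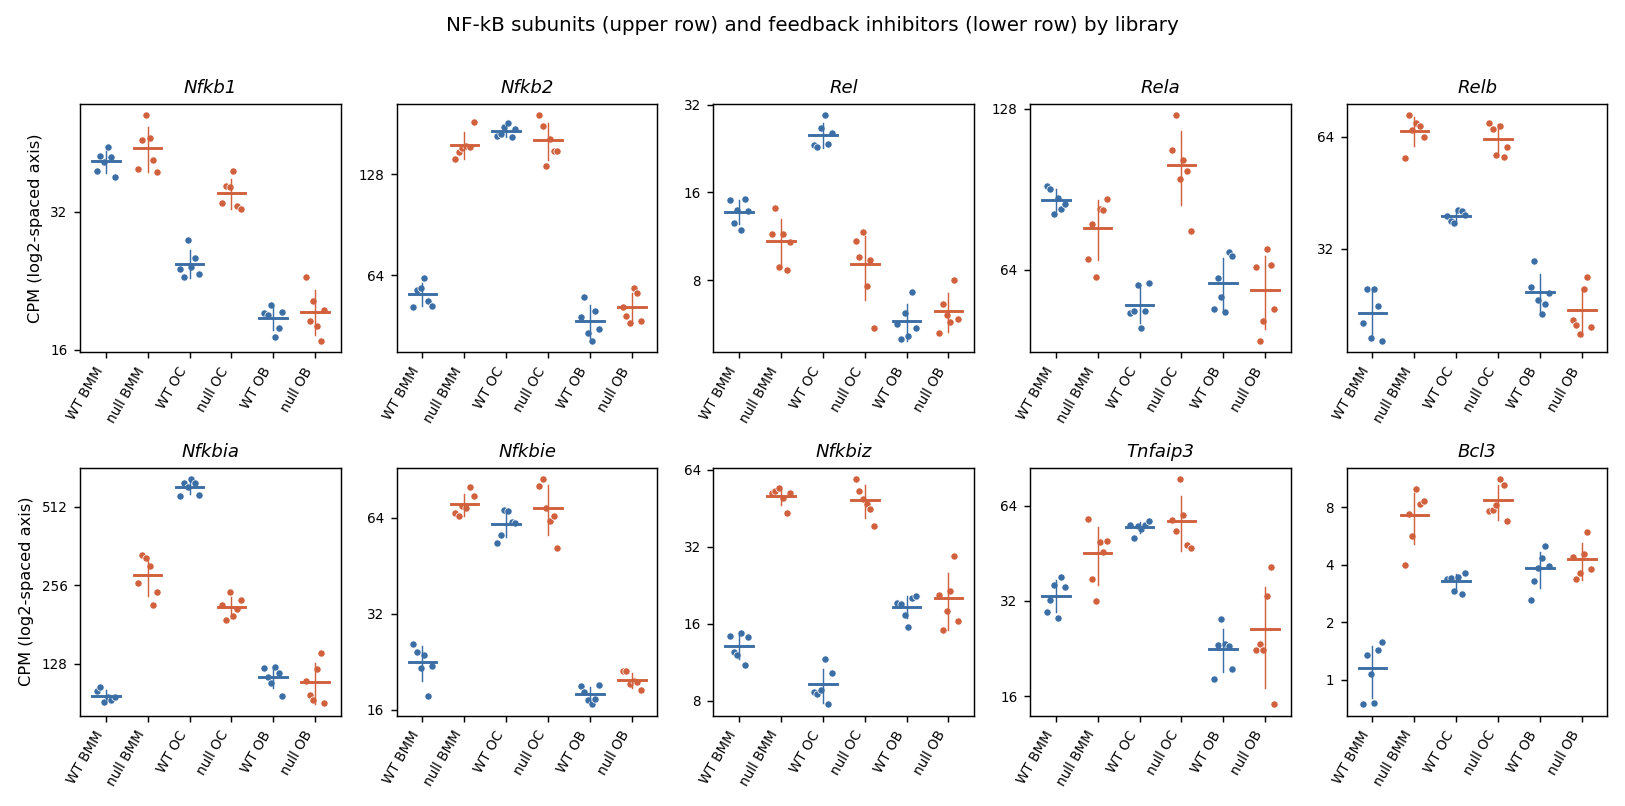
CPM of each of the 10 genes in the 36 libraries, on a log2-spaced axis, with WT in blue and null in orange. Points are libraries, horizontal lines are group means and vertical lines are 1 SD (n = 6). In Nfkbia the 6 WT OC libraries lie at 565 to 657 CPM, above all 30 others, and in Nfkbiz the null BMM and null OC libraries lie above all others.

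The first question was whether these genes differ between genotypes in macrophages. In null BMM 8 of the 10 passed an adjusted p of 0.05, 7 higher and 1 lower (quasi-likelihood test of edgeR, with Benjamini-Hochberg adjustment across every gene tested). The genotypes differed widely in this culture: 52.3% of 11935 genes passed the same threshold, 27.0% higher and 25.3% lower. A count of 8 therefore says less than the size of the changes, and 6 of the 10 changed by more than 2-fold where 12.3% of all genes did. The median log2 change was 1.52 over the 10 genes and 0.02 over all genes tested. The 10 genes were chosen with earlier results of these data known, so this contrast with all genes is only a description. Overlap of ranges between groups is given below for the 10 genes only. The share of all genes whose ranges did not overlap was not computed in any comparison. Higher genes made up 51.6% of all calls here and 33.01% of them when log2(TPM + 0.5) was tested with limma, a scale that moved the median of all genes by -0.16.

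Among the subunits, the rise was in the partners of the alternative pathway. Nfkb2 (chr19:46304320-46312385, plus strand) had a lowest, median and highest level of 51.5, 55.7 and 62.8 CPM in WT BMM, and of 142, 154 and 183 CPM in null BMM. The groups did not overlap, and the log2 change was 1.49 (SE 0.07, adjusted p 1.20e-10). Nfkb2 overlaps the gene Psd on the opposite strand, and whether reads were assigned by strand is not given in the sources used here. Relb (chr7:19606217-19629438, minus strand), the subunit that pairs with p52, ran from 18.1 through a median of 21.4 to 24.998 CPM in WT BMM and from 56.1 through 67.5 to 73.1 in null BMM. It too separated the genotypes completely, by 1.63 on the log2 scale (SE 0.10, adjusted p 8.26e-10).

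The subunits of the canonical pathway had smaller differences. Nfkb1 (chr3:135584655-135691547, minus strand), the precursor of p50, averaged 44.0 ± 4.94 CPM (SD, n = 6) in null BMM and 41.2 ± 2.24 in WT BMM (log2 change 0.10, SE 0.08, adjusted p 0.28). Rela (chr19:5637483-5648130, plus strand) averaged 76.7 ± 9.90 against 86.6 ± 4.11 CPM (log2 change -0.17, SE 0.08, adjusted p 0.0965). Rela passed as lower on the TPM scale (-0.32, adjusted p 0.0117), with the length and GC offset (-0.17, adjusted p 0.0288), with offset and block (-0.17, adjusted p 0.0450) and without null BMM replicate 6 (-0.21, adjusted p 0.0450). Rel (chr11:23736847-23770970, minus strand) averaged 10.9 ± 2.01 against 13.8 ± 1.31 CPM, and its libraries overlapped. Its fall had a log2 change of -0.32 (SE 0.12, adjusted p 0.0373). That call was lost without any 1 of WT BMM replicates 1, 5 and 6 and null BMM replicates 3, 5 and 6 (log2 change between -0.41 and -0.26 over all 12 such fits). It was also lost with the replicate number as a block (adjusted p 0.0723) and with an offset for length and GC content (0.0509).

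The genes that restrain or redirect NF-kB rose in null BMM. Nfkbia (chr12:55489410-55492647, minus strand) ran from 91.1 through 95.2 to 104 CPM in WT BMM and from 215 through 282 to 334 in null BMM, with no overlap (log2 change 1.55, SE 0.10, adjusted p 2.06e-09). Nfkbie (chr17:45555703-45563169, plus strand), which encodes the inhibitor IkB-epsilon, ran from 17.6 through 22.9 to 25.8 CPM in WT and from 64.7 through 69.1 to 79.8 in null. Its log2 change was 1.66 (SE 0.09, adjusted p 3.23e-10), again with every null library above every WT library. Nfkbiz (chr16:55811375-55838899, minus strand) encodes IkB-zeta, a nuclear cofactor for a subset of NF-kB targets. It ran from 11.1 through 13.3 to 14.8 CPM in WT BMM and from 43.4 through 51.9 to 54.4 in null BMM, and the log2 change was 1.95 (SE 0.09, adjusted p 3.97e-11).

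Bcl3 (chr7:19808462-19822770, minus strand) had the largest fold change of the 10 on a low level. It ran from 0.743 through 1.21 to 1.57 CPM in WT BMM and from 3.99 through 7.84 to 9.98 in null BMM, without overlap (log2 change 2.65, SE 0.25, adjusted p 2.51e-07). Tnfaip3 (chr10:19000910-19015657, minus strand) encodes A20, a ubiquitin-editing enzyme that shuts off the receptor complexes. It ran from 28.4 through 33.9 to 38.0 CPM in WT and from 32.1 through 47.5 to 57.9 in null, and 4 of the 6 null libraries exceeded every WT library. Its log2 change of 0.45 (SE 0.13, adjusted p 0.00715) was 0.33 and not past the threshold on the TPM scale (adjusted p 0.103).

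A sum over neutrophil markers was also higher in null BMM, through part of its list. The list of 9 summed to 44.0 to 107 TPM in null BMM and 2.17 to 3.51 in WT BMM. S100a8 was at 6.15 to 16.9 CPM in null BMM, while S100a9, Ltf, Elane and Retnlg were at 0 in every null BMM library and only 2 of the 9 had at least 10 counts in each. The macrophage list summed to 7555 to 9213 TPM in null BMM and 8356 to 9052 in WT BMM. The osteoblast list, which includes the widely expressed Spp1, summed to 1727 to 2453 TPM in null BMM and 5055 to 7979 in WT BMM. The part of these differences in the changes of the 10 genes was not tested.

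In the cultures given RANK-L, 7 of the 10 passed, of which 5 were higher in null OC and 2 lower, against a background of 65.5% of 12129 genes (32.4% higher and 33.1% lower). Of all calls 49.4% were higher, and 32.2% on the TPM scale, which moved the median of all genes by -0.20. More than 2-fold changes were found for 4 of the 10 and for 22.4% of all genes. The pattern was not that of BMM: Nfkbia and Rel were lower, Rela and Nfkb1 higher, and Nfkb2 and Nfkbie did not pass.

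Nfkbia ran from 565 through 623 to 657 CPM in WT OC and from 188 through 211 to 241 in null OC. Every null library lay below every WT library (log2 change -1.52, SE 0.07, adjusted p 2.99e-12). Rel ran from 23.0 through 24.5 to 29.4 CPM in WT OC and from 5.48 through 9.50 to 11.7 in null OC, also without overlap (log2 change -1.45, SE 0.15, adjusted p 1.57e-07). No other of the 10 passed as lower.

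Nfkbiz had the largest difference among the higher genes, from 7.76 through 8.75 to 11.6 CPM in WT OC and from 38.5 through 48.0 to 58.9 in null OC (log2 change 2.40, SE 0.12, adjusted p 1.56e-11). Bcl3 ran from 2.83 through 3.39 to 3.63 CPM in WT OC and from 6.75 through 7.97 to 11.3 in null OC (log2 change 1.42, SE 0.15, adjusted p 4.65e-07). Neither gene's groups overlapped. Among the subunits, Rela averaged 100.5 ± 16.1 against 55.1 ± 4.19 CPM (log2 change 0.88, SE 0.09), Relb 63.1 ± 5.99 against 39.3 ± 1.32 (0.70, SE 0.07) and Nfkb1 35.1 ± 2.63 against 24.7 ± 1.74 (0.52, SE 0.08). In each of these subunits the null libraries lay above the WT libraries.

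Nfkb2 averaged 161 ± 20.6 CPM in null OC and 172 ± 6.82 in WT OC, and the difference did not pass (log2 change -0.08, adjusted p 0.327). With an offset for length and GC content it was -0.33, and on the TPM scale -0.29, past the threshold in both. Nfkbie (69.0 ± 12.3 against 61.5 ± 5.70 CPM) and Tnfaip3 (57.3 ± 11.2 against 54.7 ± 2.19) did not pass either, at adjusted p of 0.149 and 0.526. Without null OC replicate 6, Nfkbie passed with a log2 change of 0.25, and the count was 8 of 10. Over all 12 such fits 7600 to 8287 genes were called. Replicate 6 had the most Ctsk of the null OC libraries, and also the lowest median correlation among them (0.962). Beside these differences stood those of the markers. The osteoclast list is given above. The macrophage list summed to 6924 to 8630 TPM in null OC and 4818 to 5726 in WT OC, and the neutrophil list to 41.4 to 55.9 and 2.30 to 4.24 TPM. Of the 9 neutrophil markers, Ly6g, Ltf, Elane and Retnlg were at 0 in every null OC library, and only 2 had at least 10 counts in each. The part of these marker differences in the result was not tested.

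In the OB cultures none of the 10 passed the threshold with edgeR, where 32.5% of 13614 genes did (15.5% higher, 16.9% lower). At an unadjusted p under 0.05 there was 1, Nfkbie (19.9 ± 1.07 against 17.9 ± 1.02 CPM, log2 change 0.14, SE 0.07), and in 5 of 6 null libraries it exceeded every WT library. DESeq2 and limma-voom also called 0 of the 10, where DESeq2 called 2418 genes higher and 2367 lower, and limma-voom 2309 and 2515. On the TPM scale the median of all genes moved by 0.15, and 81.0% of all calls were higher instead of 47.9%. There 3 passed, Nfkb1 (0.28), Nfkb2 (0.31) and Nfkbie (0.32), where 4066 of the 13614 genes were called higher and 951 lower. The log2 changes of the 10 lay between -0.17 for Relb and 0.21 for Tnfaip3. Nfkbia ran from 90.6 through 103 to 140.2 CPM in null OB and from 96.0 through 116 to 125 in WT OB, and the ranges of all 10 genes overlapped. Tnfaip3 spread widely in null OB, from 15.1 through 22.9 to 40.9 CPM.

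**Figure D2:**
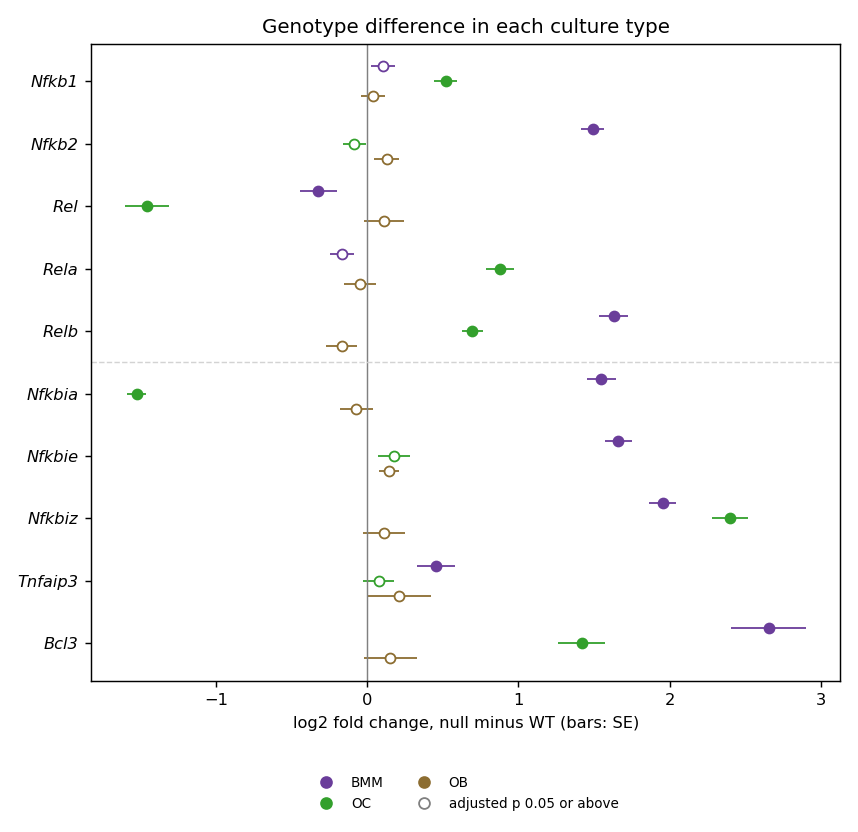
Log2 change between null and WT for each gene in BMM, OC and OB, with SE bars from 12 libraries per culture. Filled points passed an adjusted p of 0.05 and open points did not. The dashed line separates the subunits from the genes that restrain or redirect NF-kB. Nfkbia stands at 1.55 in BMM and at -1.52 in OC, and no OB point is filled.

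The response to RANK-L was read by comparing OC with BMM in each genotype. The BMM libraries of a genotype serve here and in the genotype comparison above, so the comparisons are not independent of each other. In WT all 10 genes changed, 7 higher and 3 lower in OC, where 60.5% of 12671 genes passed (30.4% higher, 30.1% lower). Calls were higher in 50.2% of cases, and in 61.0% on the TPM scale. In null cultures 3 of the 10 passed, 1 higher and 2 lower, where 12.9% of the same genes did (6.77% higher, 6.08% lower). Here 52.7% of calls were higher, and 64.5% on the TPM scale. The fit pools the spread of both genotypes, which was not equal. The coefficient of variation between libraries was 18.2% in null BMM and 18.3% in null OC, and 11.3% in WT BMM and 9.21% in WT OC.

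In WT the largest change was that of Nfkbia, from 96.4 ± 4.81 CPM in BMM to 612 ± 37.1 in OC (log2 change 2.66, SE 0.09, adjusted p 7.39e-20). Nfkb2 rose by 1.62 (SE 0.08) on the log2 scale, Bcl3 by 1.48 (SE 0.22) and Nfkbie by 1.45 (SE 0.10). Rel (0.87, SE 0.13), Relb (0.86, SE 0.08) and Tnfaip3 (0.71, SE 0.12) rose less. In these 7 genes every OC library lay above every BMM library, but the share of all genes that did so was not computed. Nfkb1 fell by 0.74 (SE 0.07) and Rela by 0.66 (SE 0.09), both without overlap. Nfkbiz fell by 0.51 (SE 0.11, adjusted p 1.82e-04), with 5 of 6 OC libraries below every BMM library.

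In null cultures none of the 7 genes that rose in WT passed as higher with edgeR on all libraries. Nfkbia was lower in null OC, at 212 ± 19.3 CPM against 280.2 ± 48.4 in null BMM (log2 change -0.40, SE 0.08, adjusted p 0.00447). Nfkb1 fell by 0.32 (SE 0.07, adjusted p 0.00753) and Rela was higher by 0.40 (SE 0.09, adjusted p 0.00680), and the ranges of all 3 overlapped between cultures. With the length and GC offset and the replicate block together, Rela no longer passed (0.26, adjusted p 0.0568). Tnfaip3 had a log2 change of 0.34 (adjusted p 0.0556, and 0.0331 with DESeq2). It passed without null BMM replicate 1 or 6, or null OC replicate 5 or 6 (0.37 to 0.43). The other 6 genes lay between -0.25 for Rel and 0.26 for Bcl3. Side by side, and with no test between them, Nfkb2 had a median of 154 CPM in null BMM and 171 in WT OC, and Nfkbie 69.1 and 61.8. For Nfkb2, 5 of 6 null BMM libraries (142 to 156 CPM) lay below every WT OC library, and replicate 6 lay above them all at 183.

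The difference between the RANK-L responses was itself tested. It passed for 9 of the 10 genes, 3 more positive and 6 more negative in null, where 51.3% of genes passed (25.3% and 26.1%). Nfkbia differed most, by -3.06 (SE 0.12, adjusted p 1.12e-17) on the log2 scale. Nfkb2 (-1.56, SE 0.11), Nfkbie (-1.47, SE 0.14), Bcl3 (-1.22, SE 0.29), Rel (-1.12, SE 0.19) and Relb (-0.92, SE 0.12) followed in the same direction. Rela differed by 1.06 (SE 0.13), Nfkbiz by 0.45 (SE 0.15) and Nfkb1 by 0.43 (SE 0.10). Tnfaip3 did not pass (-0.37, SE 0.17, adjusted p 0.0713), but did with limma-voom (-0.38, adjusted p 0.0230) and with the length and GC offset (-0.47, adjusted p 0.0115). The call for Nfkbiz was lost on the TPM scale (0.29, adjusted p 0.177).

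**Figure D3:**
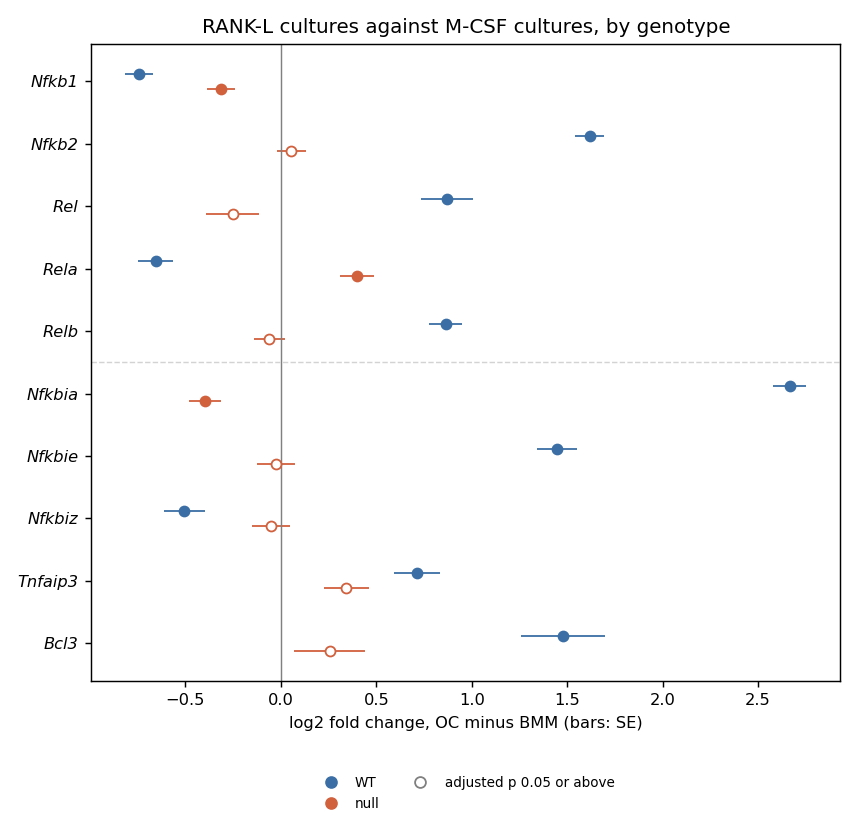
Log2 change of OC against BMM in WT (blue) and null (orange) for each gene, with SE bars. Filled points passed an adjusted p of 0.05, which held for 10 of 10 genes in WT and 3 of 10 in null. Nfkbia lies at 2.66 in WT and at -0.40 in null.

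WT OB cultures held less of most of these transcripts than the marrow-derived cultures. Against WT BMM, 9 of the 10 differed, 3 higher and 6 lower in WT OB, where 76.8% of 14278 genes differed (41.5% higher, 35.3% lower). Rel fell by 1.24 (SE 0.14) and Nfkb1 by 1.13 (SE 0.08) on the log2 scale, while Bcl3 rose by 1.71 (SE 0.22) and Nfkbiz by 0.51 (SE 0.12). The call for Nfkbia (0.24, adjusted p 0.0225) was lost with the length and GC offset (0.12, adjusted p 0.235) and without WT BMM replicate 3, WT OB replicate 1 or WT OB replicate 4 (0.20 to 0.21). Relb did not pass (0.19, adjusted p 0.0656), but did with RLE scaling (0.25), DESeq2 (0.25), limma-voom (0.18), the TPM scale (0.20) and the replicate block (0.19). Against WT OC, 8 of the 10 differed, 1 higher and 7 lower, where 77.9% of genes did (41.3% higher, 36.7% lower). Nfkbia was 5.38-fold lower in WT OB than in WT OC, Rel 4.33-fold, Nfkb2 3.68-fold and Nfkbie 3.44-fold, and Nfkbiz was 2.01-fold higher. These comparisons share the WT OB libraries, and OB and marrow cultures also differ in isolation, medium and time. The OB cultures carried macrophage and osteoclast markers, as given above, so these levels cannot be assigned to osteoblasts alone.

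The genotype difference itself differed between OB and OC for 7 of the 10 genes, 2 more positive and 5 more negative in OB, where 55.3% of genes passed (27.8% and 27.4%). The share of positive calls was 50.4%, and 75.5% on the TPM scale, which moved the median of all genes by 0.32. Nfkbiz (-2.27, SE 0.17), Rel (1.58, SE 0.19) and Nfkbia (1.47, SE 0.14) differed most, followed by Bcl3 (-1.25, SE 0.27), Rela (-0.91, SE 0.14), Relb (-0.85, SE 0.13) and Nfkb1 (-0.46, SE 0.11). On the TPM scale the calls for Nfkb1 (-0.02) and Bcl3 (-0.62, adjusted p 0.0510) were lost. Nfkb2 (0.60) and Nfkbie (0.36, adjusted p 0.0329) passed there, so that 4 of the 10 were more positive and 3 more negative. Of all 14278 genes, 6582 were more positive and 2136 more negative on that scale. Nfkb2, at 0.23 as tested with edgeR (adjusted p 0.0833), also passed with the length and GC offset (0.41) and without null OC replicate 1 (0.28).

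Ordered by level in CPM, the genes fell into different patterns. Nfkbia and Rel were highest in WT OC, and no other group's range reached that of WT OC. Relb and Nfkbiz were highest in null BMM and null OC, which overlapped with each other and lay above the other 4 groups. For Nfkb2 and Nfkbie the WT OC, null OC and null BMM libraries lay above the other 3 groups. Their ranges overlapped, for Nfkb2 in null BMM and WT OC through null BMM replicate 6 alone. For Rela the null OC libraries (75.8 to 125 CPM) were highest on average, and each group's range overlapped with that of the next in order.

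Ratios within a library do not depend on scaling between libraries, and are given as a description. The ratio of Relb to Rela in TPM was 0.301 to 0.392 in WT BMM, with a mean of 0.345, and 0.940 to 1.38 in null BMM, with a mean of 1.12. In OC the ranges overlapped, at 0.817 to 1.02 in WT and 0.686 to 1.00 in null. The ratio of Nfkb2 to Nfkb1 was 0.900 to 1.07 in WT BMM, 2.18 to 3.34 in null BMM, 4.71 to 5.37 in WT OC and 2.70 to 4.16 in null OC. Nfkbia to Rela was 1.99 to 2.09 in WT BMM, 4.76 to 9.63 in null BMM, 17.3 to 24.1 in WT OC and 2.76 to 5.39 in null OC. In OB the WT and null ranges of all 3 ratios overlapped. Summed per class, the 5 subunits held 121 to 135 TPM in WT BMM and 166 to 209 in null BMM. The 5 genes that restrain or redirect NF-kB include the nuclear IkB genes Nfkbiz and Bcl3. Together the 5 held 128 to 140 TPM in WT BMM and 299 to 361 in null BMM. In OC the sum was 678 to 868 TPM in WT and 273 to 320 in null. Most of that sum was Nfkbia. The other 4 held 32.6 to 35.2 TPM in WT BMM and 71.4 to 91.4 in null BMM. In OC these 4 held 65.5 to 87.3 TPM in WT and 67.3 to 104 in null, where the genotypes overlapped.

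**Figure D4:**
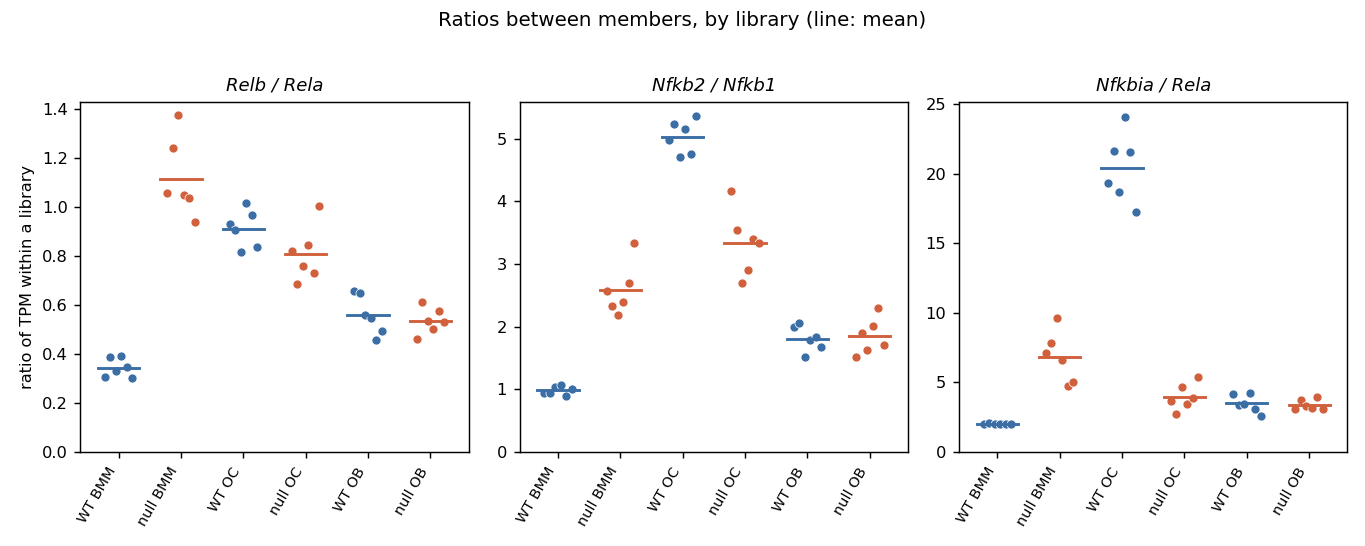
Ratios of TPM within each library, on linear axes from 0, for Relb to Rela, Nfkb2 to Nfkb1 and Nfkbia to Rela. Points are libraries and lines are means of 6. Null BMM lies above WT BMM in all 3 ratios, and WT OC stands highest for Nfkb2 to Nfkb1 and Nfkbia to Rela.

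Transcript shares were compared for the 6 genes with more than 1 transcript in the tables, in 18 tests (exact two-sided permutation test over libraries, adjusted over the 18). One passed: of the Relb counts in null BMM, 91.2% ± 6.6 (SD, n = 6) were given to Relb-202, against 24.9% ± 36 in WT BMM (exact p 0.00216, the smallest that 6 against 6 can give, adjusted p 0.0390). It was lost without any 1 of the 6 null BMM libraries (adjusted p 0.0779). Relb-202 (2209 bases) differs in length by 9 bases or fewer from Relb-201 (2200) and Relb-203 (2203). Its share in single WT BMM libraries ran from 0.997% to 72.9%, so the split of counts between these transcripts is uncertain. It also spread widely in WT OC (48.5% ± 34.1) and WT OB (39.1% ± 40.7). Among the other genes, Bcl3-201 in null BMM (72.6% ± 18.1) and Tnfaip3-201 in null OC (67.4% ± 17.2) spread widely too. Nfkb2-201 held 85.0% ± 4.63 in null BMM and 79.3% ± 5.20 in WT BMM. The most counted protein-coding transcript of Nfkb1 was Nfkb1-203 (2354 bases), at 45.1% ± 2.64 in WT BMM and 41.1% ± 5.32 in null BMM.

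Other genes of the pathway were described from fixed lists of 85 genes outside the 10. Their counts are to be read against all genes, of which 27.0% were higher and 25.3% lower in null BMM, and 32.4% and 33.1% in null OC. In null BMM 7 of 19 tested receptors and adaptors were higher and 4 lower. Traf3, an adaptor that restrains the alternative pathway, was at 36.2 ± 4.52 CPM against 11.2 ± 1.37 (log2 change 1.71, SE 0.11). Traf6, the adaptor that carries the RANK signal, was at 17.2 ± 3.63 against 49.7 ± 2.27 CPM in BMM (-1.52, SE 0.12) and at 18.6 ± 4.66 against 99.5 ± 6.61 in OC (-2.41, SE 0.13). In null OC 10 of 20 were higher and 7 lower, and Tnfrsf1b, a receptor of tumour necrosis factor, had the largest rise among them (357 ± 48.6 against 62.4 ± 4.83 CPM). Of the 11 kinases and their partners, 5 were higher and 1 lower in null BMM, and 3 higher and 0 lower in null OC. Ikbke, a kinase related to the IkB kinases, was at 197 ± 11 against 76.7 ± 2.87 CPM in BMM and at 181 ± 15.8 against 29.5 ± 2.79 in OC.

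Of 16 other brakes on the pathway, 10 were higher in null BMM and 2 lower, with a median log2 change of 0.73, and 10 higher and 4 lower in null OC, with a median of 0.48. Of all genes, 52.3% passed in BMM and 65.5% in OC. Irak3, a brake on Toll-like receptor signalling, was at 254 ± 31.2 against 42.0 ± 4.70 CPM in BMM and at 246 ± 23.2 against 19.1 ± 1.26 in OC. Of the textbook NF-kB targets, 13 of 24 tested were higher in null BMM and 7 lower (median 0.68), and in null OC 20 of 25 were higher and 4 lower (median 1.88). Lcn2, a siderophore-binding protein, had 119 to 248 counts per library in null BMM and at most 2 in WT BMM. Bcl2a1b, a survival gene with near-identical copies whose counts are uncertain, was at 39.2 ± 4.77 against 263 ± 22.8 CPM in null BMM. In null OB 2 targets were higher and 10 lower of 25 tested (median -0.38), where 15.5% of all genes were higher and 16.9% lower. Beside them, the macrophage list summed to 2183 to 2564 TPM in null OB (WT OB 2843 to 3304) and the osteoblast list to 43297 to 58680 (WT OB 28587 to 38618). For the osteoclast list, every null OB sum (5414 to 8162 TPM) exceeded the WT OB range of 4147 to 5214 TPM. None of these lists overlapped between the genotypes, and their part in the result was not tested.

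Of 11 genes of the RANK-L programme after NF-kB, 6 rose and 5 fell with RANK-L in WT, where 60.5% of all genes passed, and 3 rose and 1 fell in null, where 12.9% did. Prdm1, a repressor needed for osteoclast formation, went from 2.29 ± 1.53 to 49.3 ± 5.53 CPM in WT, and was at 4.12 ± 1.53 in null OC. Irf8, which holds back osteoclast formation, went from 270.3 ± 7.92 to 32.9 ± 1.52 CPM in WT and was at 205 ± 25.4 in null OC. Among the other brakes, Nfkbid, another nuclear IkB gene, had the largest rise with RANK-L in WT (from 7.62 ± 1.57 to 25.2 ± 1.84 CPM).

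**Figure D5:**
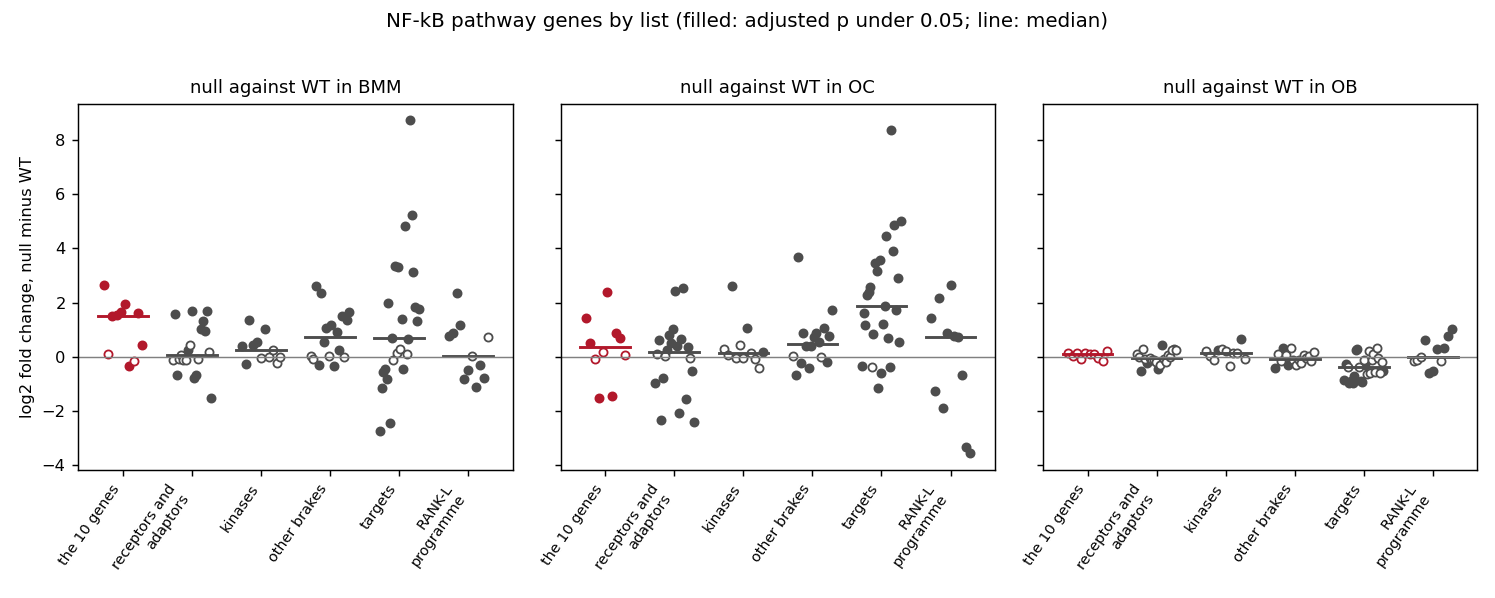
Log2 change between null and WT of the 10 genes (red) and of 5 lists of other pathway genes (grey), in BMM, OC and OB. Each point is a gene, filled where the adjusted p was under 0.05, and lines are medians. The median of the 10 genes is 1.52 in BMM, 0.35 in OC and 0.11 in OB, and the median of the targets is 0.68, 1.88 and -0.38.

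The genes with the most similar profile were found by Pearson correlation of log2 CPM over the 36 libraries, among 8940 genes outside the 10. The points share groups and scaling, so the values are a description. Nfkb2 was closest to Ehd1 (r = 0.99) and Traf3 (0.98), and Nfkbie to Ehd1 (0.98) and Vasp (0.98). Relb was closest to Sod2 (0.97) and Clec4a1 (0.97), Nfkbia to Cd82 (0.96) and Traf1 (0.96), and Nfkbiz to Fpr1 (0.97) and Saa3 (0.97). Nfkb1 was closest to B4galt6 (0.98), Rel to Atp6v1a (0.96), Rela to Snx30 (0.90), Tnfaip3 to Abr (0.92) and Bcl3 to Adgrl2 (0.90).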

How the data were processed

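Gene expression was measured by RNA-seq of total RNA in 36 libraries (6 groups of 6), prepared with the mirVana and NEB low input kits, per the labels' protocols. Per the submitters' processing notes, kallisto and DESeq2 were used and the build is given as GRCh38, a human build, although the organism is mouse and the transcript identifiers are mouse Ensembl ones; versions are not given in the sources used here. Per the file headers, the authors deposited an estimated count and a TPM value for each transcript, with its length and effective length. GENCODE M21 held 97.6% of the 88198 transcript identifiers, and lengths were equal for 88.8% of the matched ones. The unmatched transcripts held 0.606% to 0.960% of the counts and were left out.

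The estimated counts and TPM were summed per gene, and the counts were rounded. Depth limits low genes most, Bcl3 among the 10. After filterByExpr and TMM scaling, edgeR 4.0.16 gave the tests (robust quasi-likelihood fit, R 4.3.3). Benjamini-Hochberg adjustment covered every gene tested, and the threshold was 0.05. Genotype comparisons used the 12 libraries of a culture, RANK-L comparisons 24 and comparisons with OB 36. The fit was tested on simulated data. As alternatives, scaling by RLE, DESeq2 1.42.0, unfiltered genes and a minimum mean of 10 counts were tried, as were limma 3.58.1 (voom with quality weights, and log2(TPM + 0.5)), a replicate block, offsets for effective length and for length and GC content (lowess span 0.3), 1 fit of all 36 libraries, and leaving out each library. The 10 genes and the lists were chosen with earlier results of these data known. From each list, the called gene that changed most in each direction could be named if its mean reached 1 CPM; for similarity, the 2 genes with the highest correlation among those averaging 10 CPM or more.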

Additional observations from a re-analysis of the deposited data

Results flagged for a closer look

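One library lay far from the others of its group. Nfkb2 in null BMM replicate 6 was at 183 CPM, while the other 5 null BMM libraries lay at 142 to 156, a gap of 0.671 of the whole range, past Dixon's critical value. Of 60 sets of 6 libraries examined (10 genes in 6 groups) this was the only one, and chance alone marks about 1 set in 20.

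The response to RANK-L differed between genotypes by the interaction test for 9 genes, in log2 units of null minus WT: Nfkb1 (0.43), Nfkb2 (-1.56), Rel (-1.12), Rela (1.06), Relb (-0.92), Nfkbia (-3.06), Nfkbie (-1.47), Nfkbiz (0.45) and Bcl3 (-1.22). The genotype difference itself was unlike in OB and OC for 7 genes, in log2 units of OB minus OC: Nfkb1 (-0.46), Rel (1.58), Rela (-0.91), Relb (-0.85), Nfkbia (1.47), Nfkbiz (-2.27) and Bcl3 (-1.25).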

How the results depend on the processing

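Over the 10 genes and 9 comparisons, 870 of 930 values under other settings kept their direction and their side of the threshold, and 1286 of 1320 with 1 library left out. Those that turned direction were 26 and 12, and the cause was not tested. In limma on log2(TPM + 0.5), Nfkb1 in BMM turned to -0.037, Nfkbie and Tnfaip3 in OC to -0.043 and -0.14, Rela, Relb and Nfkbia in OB to 0.13, 0.070 and 0.099, Nfkbie with RANK-L in null to 0.0090 (0.027 with limma-voom), Bcl3 in WT OB against OC to -0.091, and Nfkbie in genotype by OB versus OC to 0.36, past the threshold. Offsets for length and GC (in brackets, the block added) turned Nfkbia in OB to 0.095 (0.078), Nfkb2 with RANK-L in null to -0.089 (-0.094), Relb in WT OB against BMM to -0.023 (-0.018), Rela and Bcl3 in WT OB against OC to -0.028 (-0.030) and -0.26 (-0.28), and Nfkbie and Tnfaip3 in genotype by OB versus OC to 0.15 (0.15) and -0.043 (-0.054). With the block it also turned Nfkbiz in OB to -0.0025 and Tnfaip3 in OB to -8.5e-05. Of these, only the Nfkbie change of 0.36 passed the threshold, and none was a call by edgeR as described.

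The number of all genes called in OB, 4421, was 2019 with the length and GC offset and 1764 with the block added. With RANK-L in null, 1629 became 1013 with limma-voom, 986 with the replicate block and 797 with offset and block. It was 811 to 2143 with 1 library left out, outside 1.5-fold without null BMM replicate 2, 3 or 4 or null OC replicate 3. Of the 10 genes, the 0 called in OB became 3 on the TPM scale, where 4066 of 13614 genes were called higher and 951 lower. The 1 transcript share called became 4 in TPM, and 0 to 2 with 1 library left out.

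Same-number correlations ran from -0.28 to 0.24 over 9 pairs of groups, and in none were all 6 over 0.1, so the numbers are not taken to pair samples. Over 0.1 were 3 of 6 for WT OB with null OB and for null BMM with null OB, 2 for WT BMM with WT OB, 1 for WT BMM with WT OC and 0 in the other 5 pairs of groups. With the replicate block, 7 of the 10 genes were called in BMM (Rel was lost), 7 in OC, 0 in OB, 10 with RANK-L in WT and 3 in null (2 with the length and GC offset added). Of 11935 genes tested in BMM, the block called 2845 higher and 2803 lower. Of 12129 in OC it called 3669 and 3895, and of 13614 in OB 1943 and 2143. Of 12671 with RANK-L it called 3757 and 3697 in WT, and 567 and 419 in null (442 and 355 with the offset added).

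Without single libraries, direction turned for values near 0: the lowest and highest were -0.027 and 0.14 for Tnfaip3 in OC, -0.017 and 0.075 for Nfkb1, -0.090 and 0.022 for Rela and -0.031 and 0.19 for Nfkbiz in OB, -0.0033 and 0.11 for Nfkb2, -0.096 and 0.041 for Nfkbie and -0.12 and 0.0042 for Nfkbiz with RANK-L in null, and -0.11 and 0.032 for Nfkbie and -0.046 and 0.25 for Tnfaip3 in genotype by OB versus OC.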
